A study of Mus musculus with 9 samples.

Results

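Of the 9 Illumina bead arrays of mouse splenic B cells analysed here, 3 carried a high signal for Hba-a1, the gene of an adult alpha-globin chain of hemoglobin, and 6 carried a low one. The arrays were divided by that signal alone: an array counted as hemoglobin-rich when the intensity of its Hba-a1 probe exceeded 1000, and the array design held 1 probe with that gene name. The hemoglobin-rich arrays were untreated replicate 3, 1 h replicate 3 and 2 h replicate 1, which puts 1 of the 3 in each label of the study. The lowest value inside the division was 2358, on untreated replicate 3, and the highest value outside it was 325, on 2 h replicate 3. Because the arrays were chosen by a value measured on them, every difference between the 3 hemoglobin-rich arrays and the 6 others is given below as a description, with no test.

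The cells were primary B lymphocytes of C57BL/6 mice aged 8 weeks, taken from the spleen, and no genetic change is named for any group. They were left untreated (3 arrays), or their antigen receptor was crosslinked with a goat F(ab')2 antibody to mouse IgM at 2.5 µg/ml for 1 h (3 arrays) or for 2 h (3 arrays). CD40 ligand (200 ng/ml) and interleukin-4 (5 ng/ml) also appear in the protocol, without a statement of which arrays received them, and the design text names 3 h where the labels name 1 h and 2 h. The way in which the B cells were purified, and whether mice were pooled, is not stated.

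Hemoglobin is made by developing red cells, which in mice mature in the marrow and also in the red pulp of the spleen. The adult protein joins alpha chains, from Hba genes, with beta chains, from Hbb genes, around an iron-holding heme group, and reticulocytes that have lost their nucleus still hold globin mRNA. The spleen also holds neutrophils, which are rich in the cytosolic proteins S100a8 and S100a9 and in granule proteins such as lactoferrin and lysozyme, and red pulp macrophages, which take up aged red cells and recycle their iron. A preparation of splenic B cells can therefore contain RNA of each of these.

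Intensities are the linear, background-subtracted values that the authors deposited. Each array had 19088 to 19112 probes above noise and a median intensity of 3.76 to 3.77, and 0 pairs of arrays were identical. A value of about 6.44 marks the noise level. The defining B cell gene Cd79b was above noise on all 9 arrays, at 2450 to 9360. Some arrays stood apart from their labels. Over all features, untreated replicate 2 correlated best with 2 h replicate 1 (r = 0.986), 2 h replicate 2 best with untreated replicate 1 (r = 0.994), and 1 h replicate 2 best with untreated replicate 2 (r = 0.978). None of these arrays labelled replicate 2 is hemoglobin-rich. The hemoglobin-rich arrays stayed with their labels: untreated replicate 3 lay close to untreated replicate 1 (r = 0.993), 1 h replicate 3 to 1 h replicate 1 (r = 0.990) and 2 h replicate 1 to 2 h replicate 3 (r = 0.993). The differences of the leading genes and lists are therefore also given without the arrays labelled replicate 2, which leaves 1 hemoglobin-rich and 1 other array in each label.

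The genes that separated the arrays most were globin genes, whose promoters share known sequence elements. The 110 bases before the start of Hba-a1 (chr11:32283562-32283671, plus strand), Hbb-bs (chr7:103827929-103828038, minus strand) and Hbb-bt (chr7:103813924-103814033, minus strand) are shown because these 3 genes led the division. Those of S100a8 (chr3:90668961-90669070, plus strand) and S100a9 (chr3:90695722-90695831, minus strand), which encode the subunits of the neutrophil protein calprotectin, are shown beside them as the leading genes of another cell type. Capitals mark matches on either strand to 4 motifs known from globin promoters: CACCC, the core of a site for KLF1-like factors; the CCAAT box; ATATAA, a form of the TATA box; and GATAA, the core of a site for GATA factors.
Hba-a1: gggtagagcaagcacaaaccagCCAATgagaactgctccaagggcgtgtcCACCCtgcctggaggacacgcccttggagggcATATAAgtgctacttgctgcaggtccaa
Hbb-bs: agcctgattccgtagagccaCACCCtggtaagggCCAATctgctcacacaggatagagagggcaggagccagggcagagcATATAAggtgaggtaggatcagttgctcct
Hbb-bt: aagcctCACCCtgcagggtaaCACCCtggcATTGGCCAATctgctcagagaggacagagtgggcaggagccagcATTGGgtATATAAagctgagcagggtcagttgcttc
S100a8: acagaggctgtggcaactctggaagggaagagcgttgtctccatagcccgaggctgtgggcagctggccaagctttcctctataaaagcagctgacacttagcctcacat
S100a9: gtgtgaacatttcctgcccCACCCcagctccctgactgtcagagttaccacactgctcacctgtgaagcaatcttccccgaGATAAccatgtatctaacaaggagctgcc

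The sequences are those of RefSeq on GRCm38.p6, each read 5′ to 3′ on the strand of its gene. All of these except GATAA occurred in each of the 3 globin windows. Across 32851 promoter windows of the same length, 29.6% held CACCC and 20.2% held the CCAAT box. ATATAA was found in 4.09% of them and GATAA in 9.43%. In 75 windows (0.228%) the first 3 of these motifs occurred together. In Hbb-bt, a CCAAT on the opposite strand, read here as ATTGG, ended directly beside the CCAAT on the gene's own strand without overlapping it. The S100a9 window held 1 CACCC and 1 GATAA, and the S100a8 window held none of the 4 motifs. These matches describe letters in a window and do not show that a factor binds there.

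Globin transcripts showed the widest division between the arrays. Hba-a1 (chromosome 11, 32283672 to 32284486, GRCm38) had an intensity of 2358 on untreated replicate 3, 2644 on 1 h replicate 3 and 2600.2 on 2 h replicate 1. On the other arrays it was 73.7 and 65.9 among untreated arrays, 141 and 67.4 among 1 h arrays, and 217 and 325 among 2 h arrays. The hemoglobin-rich values lay close to each other, while the 6 low values spanned a wider relative range, with the 2 h arrays highest among them. The difference within a label, taken as the hemoglobin-rich array minus the mean of the other 2 arrays on the scale of log2(intensity + 50), was 4.33 in the untreated label, 4.17 at 1 h and 3.07 at 2 h, with a mean of 3.86 ± 0.69 (SD, n = 3 labels). The ratio of mean intensities was 17.1-fold. These values chose the arrays and stand here only as a description. Fewer cells of a type and less RNA per cell cannot be told apart in such bulk RNA.

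Both adult beta-globin genes measured were divided in the same way. Hbb-bs (chromosome 7, 103826523 to 103827928), 1 of the adult beta-globin genes of C57BL/6 mice, read 3404, 3378 and 3515 on the hemoglobin-rich arrays of the untreated, 1 h and 2 h labels, and 131 to 453 on the 6 others. Its neighbour Hbb-bt (chromosome 7, 103812524 to 103813923) read 2684, 2529.7 and 2423, against 105 to 320.1. Neither gene overlapped between the sides. The mean difference was 3.66 ± 0.55 for Hbb-bs and 3.58 ± 0.60 for Hbb-bt (SD, n = 3 labels), with intensity ratios of 13.97 and 14.11. Without the arrays labelled replicate 2, the mean differences were 3.64 for Hba-a1, 3.43 for Hbb-bs and 3.40 for Hbb-bt. Alpha-globin is encoded by near-identical gene copies, as is beta-globin, and which copy each probe reads was not separable here.

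The low arrays had the same lowest and highest array for the 3 globin genes. Across the 6 other arrays, Pearson's r with Hba-a1 was 0.99 for Hbb-bs and 0.99 for Hbb-bt, a description over 6 arrays that share labels and normalization. For both beta-globin genes 2 h replicate 3 was the highest of the 6 and untreated replicate 2 the lowest, which is also the order of Hba-a1 at its ends, while untreated replicate 1 and 1 h replicate 2 changed places for Hbb-bt. Of the 7 globin genes with a probe, 4 passed the filter of being above noise on at least 3 arrays. The fourth, the embryonic gene Hbb-bh1, stayed near noise, with a difference of -0.00. Hbb-b2, the embryonic Hbb-y and the embryonic Hba-x did not pass the filter, and Hbb-b1 had no probe here.

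**Figure D1:**
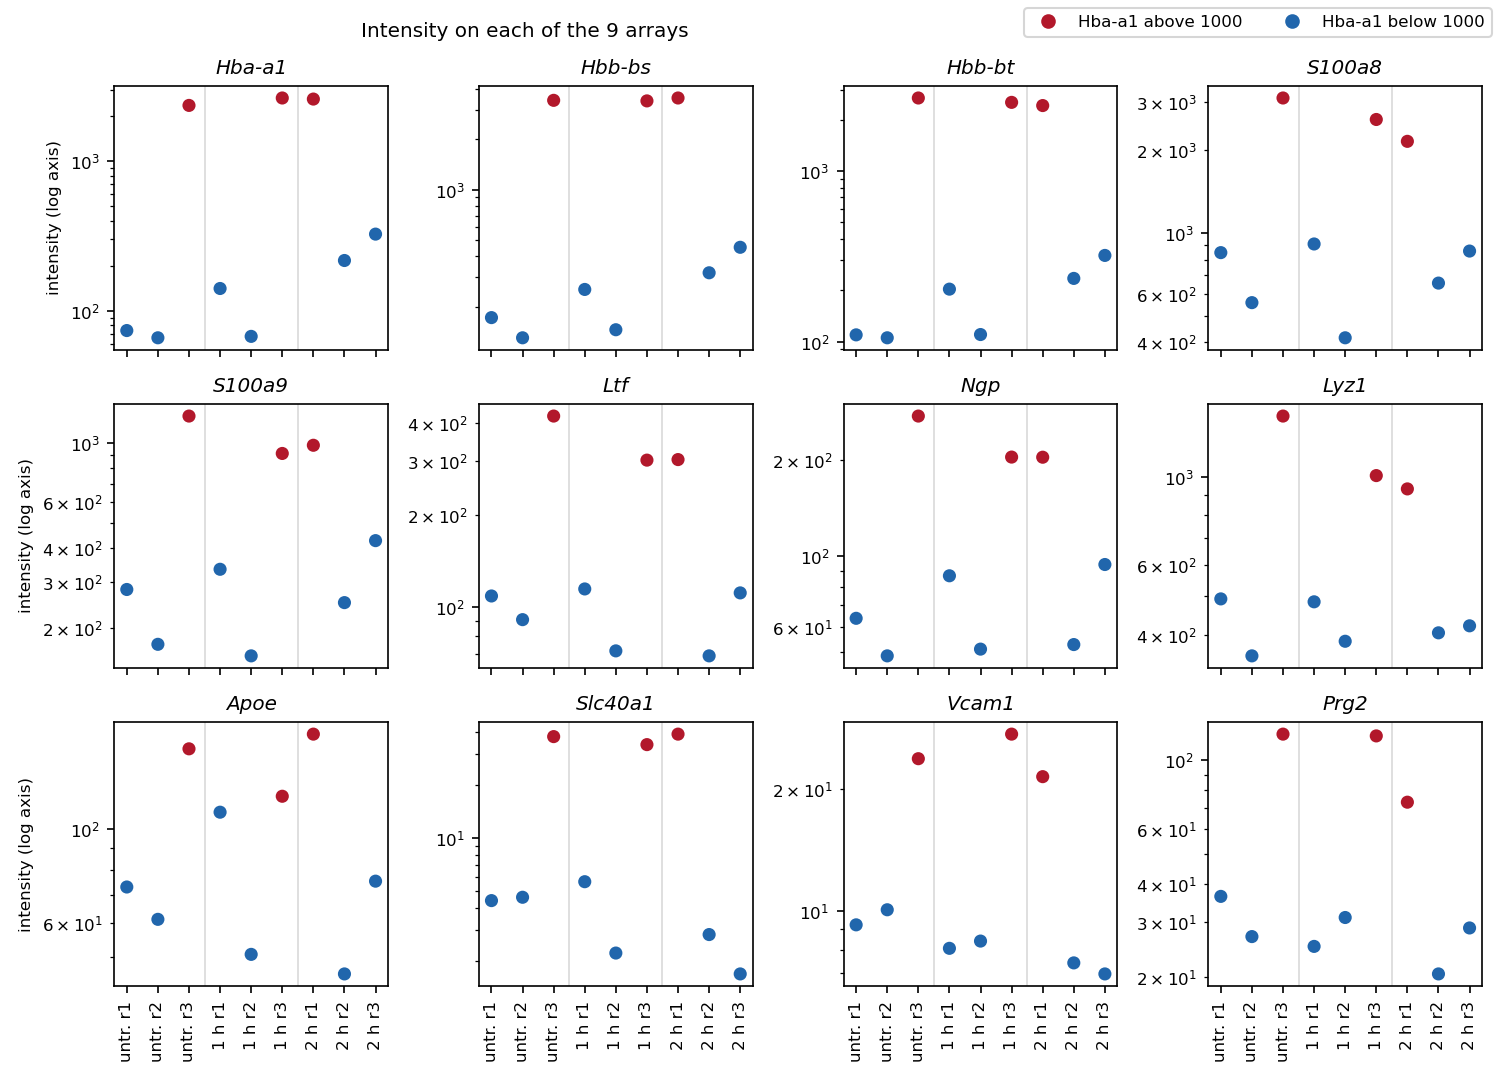
Intensity (log axis) of 12 genes on each of the 9 arrays, 1 point per array, with red for the 3 hemoglobin-rich arrays and blue for the 6 others, and grey lines between the labels. The red points lie above every blue point in all 12 panels, and the neutrophil genes S100a8, Ltf and Ngp and the lysozyme gene Lyz1 are highest on untreated replicate 3, whereas Hba-a1 differs little among the red points.

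Over all 14640 features measured, the division touched few genes. The 3 hemoglobin-rich values lay above all 6 others for 123 features (0.84%) and below all 6 for 74 (0.505%). Those above with a mean log2 difference of 1 or more numbered 13 (0.0888%), and those below with a difference of -1 or lower numbered 0 (0.0%). The median difference was -0.00, and 99.5% of the features differed by less than 0.5 in either direction. Of the 13, 3 are globins, 6 are neutrophil genes, 2 are lysozymes of the macrophage list, 1 is Chil4, a chitinase-like gene in none of the lists, and 1 is a probe with no gene name. Among the 123, 19 passed the noise filter only through the hemoglobin-rich arrays and so had to differ.

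**Figure D2:**
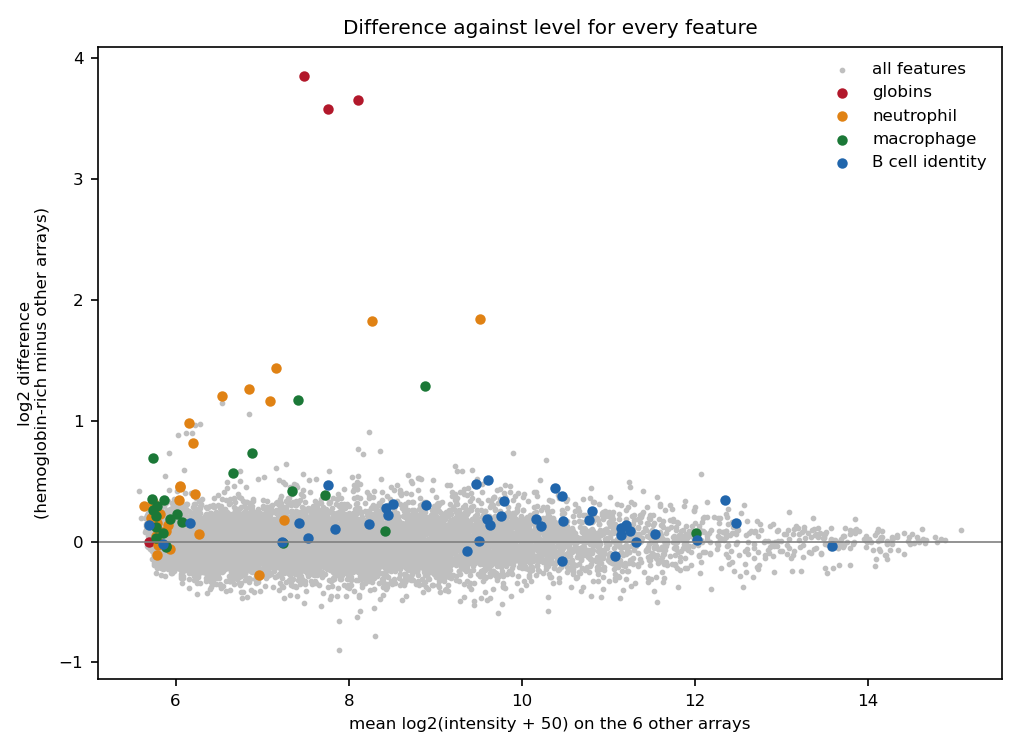
Mean log2 difference between the hemoglobin-rich and the other arrays (vertical axis, log2 units) against the mean log2(intensity + 50) on the 6 other arrays (horizontal axis) for 14640 features. Of the 4 globin points, 3 stand between 3.58 and 3.86 and that of Hbb-bh1 lies at -0.00. Neutrophil points follow up to 1.84, and B cell points lie between -0.16 and 0.51 at all levels.

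Neutrophil transcripts came next after globin. S100a8 (chromosome 3, 90669071 to 90670034) encodes a calcium-binding protein that fills the neutrophil cytosol, and read 3091 on untreated replicate 3, 2582 on 1 h replicate 3 and 2151 on 2 h replicate 1. On the other arrays it read 848 and 558 among untreated arrays, 911 and 416 among 1 h arrays, and 657 and 859 among 2 h arrays. The sides did not overlap, and the arrays labelled replicate 2 were the lowest of their labels. The mean difference was 1.84 ± 0.34 (SD, n = 3 labels), a 3.68-fold ratio of intensities, and 1.51 without the arrays labelled replicate 2.

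S100a9 (chromosome 3, 90692630 to 90695721), its partner, read 1260.3, 911 and 978 on the hemoglobin-rich arrays and 157 to 428 on the others, a mean difference of 1.83 ± 0.42 (SD, n = 3 labels) and of 1.47 without the arrays labelled replicate 2. Across the 6 other arrays, r with Hba-a1 was 0.51 for S100a8 and 0.78 for S100a9, lower than the 0.99 of the beta-globin genes. Among the hemoglobin-rich arrays, S100a8 was highest on the untreated array and lowest on the 2 h array, whereas Hba-a1 was lowest on the untreated array. The globin and S100a signals were high on the same 3 arrays but were not in a fixed ratio there.

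Genes of the secondary granules, which neutrophil precursors make late in maturation, followed. Ltf, which encodes the iron-binding protein lactoferrin, read 420.1, 302 and 303 on the hemoglobin-rich arrays and 69.1 to 114 on the others, a difference of 1.44 ± 0.19 (SD, n = 3 labels). Ngp, the neutrophilic granule protein gene, read 275, 204 and 204 against 48.6 to 94.0, a difference of 1.27 ± 0.31. Lcn2, which encodes a protein that binds bacterial siderophores, read 212, 149 and 135 against 27.1 to 67.9, a difference of 1.20 ± 0.31. Camp, the cathelicidin gene, lay just under the limit of 1, at 0.98 ± 0.13, with 99.2, 91.4 and 82.6 against 15.1 to 33.6. Chil3, a chitinase-like gene of myeloid cells, differed by 1.16 ± 0.42, and its close paralog Chil4 by 1.06 ± 0.38. The probes of this pair may read both. Without the arrays labelled replicate 2, the differences were 1.27 for Ltf, 1.08 for Ngp, 0.96 for Lcn2, 0.86 for Camp, 0.91 for Chil3 and 0.84 for Chil4, and each of these genes still lay above on all 3 arrays.

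Primary granule genes, made earlier in maturation, differed by less on this scale. Mpo, the myeloperoxidase gene, read 118, 61.9 and 63.8 on the hemoglobin-rich arrays and 3.6 to 41.0 on the others, a difference of 0.81 ± 0.23 (SD, n = 3 labels). Elane, the neutrophil elastase gene, read 47.7, 32.9 and 43.8 against 10.1 to 24.9, a difference of 0.46 ± 0.15. At such dim values the offset of 50 pulls a difference towards 0, and the ratio of mean intensities was 3.27 for Mpo and 2.54 for Elane. Prtn3 and Ctsg, which encode further proteases of these granules, also lay above on all 3 arrays, by 0.34 and 0.33. Mpo differed by 0.81 and Elane by 0.42 without the arrays labelled replicate 2.

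Of 39 neutrophil genes with a probe, 29 passed the noise filter. Of these, 1 passed only through the hemoglobin-rich arrays and so had to lie above. Of the 29, 14 lay above on all 3 hemoglobin-rich arrays and 0 below, beside 0.84% and 0.505% of all features, and the median difference was 0.23 beside -0.00. The highest array was untreated replicate 3 for 11 of the 14 and 2 h replicate 1 for 3. The summed intensity of the 29 genes was 4909 to 6275 on the hemoglobin-rich arrays and 1255 to 2391 on the others. Members that overlapped included Mmp8 and Mmp9, which encode proteases of neutrophil granules, with differences of 0.05 and -0.06. Csf3r, the receptor for granulocyte colony-stimulating factor, also overlapped, with 0.07. Il1r2, a decoy receptor for interleukin-1, followed another division, with 10.4 to 14.4 on untreated replicates 1 and 3 and 2 h replicate 2, and 142 to 335 on the other 6 arrays. Cxcr2, Padi4 and Il1b were among the 10 members that did not pass the filter. Il1r2 and the list members named here beside the rule were picked after their values were seen.

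**Figure D3:**
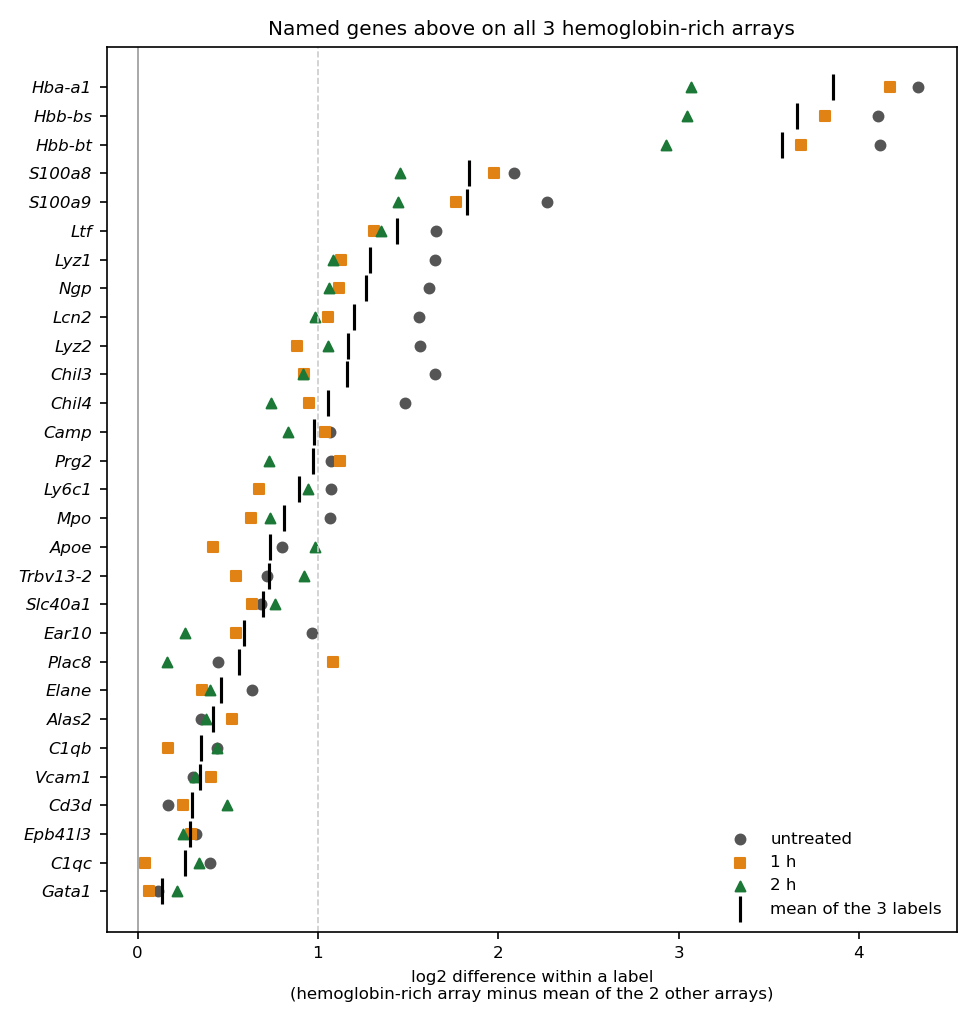
Log2 difference within each label (hemoglobin-rich array minus the mean of the 2 other arrays) for the named genes that lay above on all 3 hemoglobin-rich arrays, with a circle for untreated, a square for 1 h, a triangle for 2 h and a bar for their mean. The globins lie between 2.93 and 4.33, S100a8 and S100a9 between 1.44 and 2.27, and the largest value of each of these genes is that of the untreated label.

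Macrophage genes were divided less evenly. Lyz1 and Lyz2, the lysozyme genes that macrophages and neutrophils both express, led the list with differences of 1.29 ± 0.31 and 1.17 ± 0.35 (SD, n = 3 labels). Lyz1 read 1419.6, 1006 and 931 against 355 to 493.1, and Lyz2 read 427, 302 and 285 against 84.1 to 155. Leaving out the arrays labelled replicate 2 gave 1.16 and 1.03. The 2 genes are close paralogs, and the probes may read both.

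Genes closer to the red pulp macrophage were dim. Slc40a1, the gene of ferroportin, which exports iron from these macrophages, read 37.5, 33.8 and 38.8 on the hemoglobin-rich arrays and 1.7 to 5.6 on the others, and was above noise on 0 of the 6 others. It passed the filter only through the hemoglobin-rich arrays, so its difference of 0.70 ± 0.06 had to be above 0. Vcam1, an adhesion molecule of these macrophages and of stromal cells, read 23.8, 27.4 and 21.5 against 7.0 to 10.1, a difference of 0.35 ± 0.06, and was above noise on all 9 arrays. Apoe, which encodes a lipid carrier protein, read 154, 119 and 167 against 45.7 to 109, a difference of 0.74 ± 0.29 and 0.54 without the arrays labelled replicate 2. In that setting Slc40a1 differed by 0.69 and Vcam1 by 0.35.

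The complement genes of tissue macrophages lay near noise. C1qb read 19.6, 11.5 and 21.8 on the hemoglobin-rich arrays and -0.6 to 10.7 on the others, where 1 of 6 arrays was above noise, and differed by 0.35 ± 0.16 (SD, n = 3 labels). C1qc read 23.5, 6.6 and 13.8 against -0.1 to 6.4, a difference of 0.26 ± 0.19 that was 0.04 at 1 h, and it passed the filter only through the hemoglobin-rich arrays. C1qa did not pass the filter. Hmox1, the heme-degrading enzyme gene that red pulp macrophages use, was highest on 1 h replicate 2, a low-globin array, at 34.4, and differed by -0.04 ± 0.24.

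Of 35 macrophage genes with a probe, 23 passed the filter, 2 of them only through the hemoglobin-rich arrays. Of the 23, 9 lay above and 0 below, beside 0.84% and 0.505% of all features, and the median difference was 0.22. The members that passed only through those arrays had to lie higher there. The summed intensity of the 23 genes was 6314 to 7564 on the hemoglobin-rich arrays and 4851 to 6394 on the others, so that the sums overlapped. Adgre1, which encodes the surface protein F4/80, overlapped between the sides: it read 219, 169 and 126 against 6.2 to 288. Cd163, Siglec1, Marco, Vsig4, Cd5l and Mertk, markers of spleen macrophages, did not pass the filter.

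Few other genes of the erythroid lineage lay above on the same 3 arrays. Alas2, the erythroid enzyme that starts heme synthesis, was above noise on the 3 hemoglobin-rich arrays alone, at 7.1, 21.4 and 13.7, against -5.2 to 2.0 on the others. Its difference was 0.42 ± 0.09 (SD, n = 3 labels), and it passed the filter only through those arrays. It was 1 of 14 genes of heme synthesis and erythroid iron handling above on all 3. Having passed only through those arrays, it had to lie above, so this count says little beside the 0.84% of all features. The list median was 0.01.

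Of 8 erythroid membrane genes that passed the filter, 0 lay above and 0 below, and the median was 0.03. With 0.84% of all features above and 0.505% below, 0 of 8 is near the background and says little about these genes. Slc4a1, the anion exchanger band 3 of the red cell membrane, read 15.8, 8.0 and 1.6 on the hemoglobin-rich arrays and 4.9 to 12.0 on the others, a difference of -0.00 ± 0.15. Of the 16 genes of this list with a probe, 8 did not pass. Of 9 erythroid transcription factors, Gata1 alone lay above on all 3, beside 0.84% of all features. It read 6.8 to 9.1 against -1.7 to 5.5 and passed the filter only through those arrays, so it had to lie above. The median of the 9 was 0.07. This list holds Bcl11a, which B cells also express. Tfrc, the transferrin receptor gene, was 1 of the genes with a negative difference, at -0.20.

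Genes of further spleen cell types gave single members rather than lists, beside 0.84% of all features above. Prg2, the major basic protein gene of eosinophils, read 122, 120.0 and 73.3 against 20.5 to 36.4, a difference of 0.97 ± 0.22 (SD, n = 3 labels), and was 1 of 8 mast cell, basophil and eosinophil genes that lay above. Ear10, an eosinophil-associated ribonuclease gene in none of the lists, read 83.3, 50.2 and 32.6 against 13.8 to 23.8. Ly6c1, a surface protein gene of monocytes and other cells, read 104, 61.2 and 77.8 against 8.2 to 33.4, a difference of 0.90 ± 0.20, and was 1 of 13 monocyte genes above.

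T cell genes were mixed. The T cell receptor beta variable segment Trbv13-2 read 49.3, 42.7 and 59.5 against 4.7 to 13.6, a difference of 0.73 ± 0.19 (SD, n = 3 labels). Cd3d, a chain of the T cell receptor complex, read 22.5, 25.3 and 34.6 against 5.1 to 18.9, a difference of 0.30 ± 0.17. Its partner Cd3e stayed near noise, at 5.7 to 11.9 against -3.4 to 9.2, and overlapped. Cd3d was 1 of 19 T cell genes above, beside 0.84% of all features. The list's median was 0.06, and Cd8a did not pass the filter.

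The remaining cell types had 0 members above, which is near the 0.84% of all features for lists of this size and says little about them. Natural killer genes had a median of 0.05 over 9 genes, and Nkg7, a granule protein gene, was highest on 1 h replicate 2 at 83.8. Platelet genes had a median of 0.06 over 7 genes, and Pf4, platelet factor 4, was highest on 2 h replicate 3 at 25.3, a low-globin array. Dendritic cell genes had a median of -0.03 over 8 genes and stromal and endothelial genes one of 0.04 over 11.

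**Figure D4:**
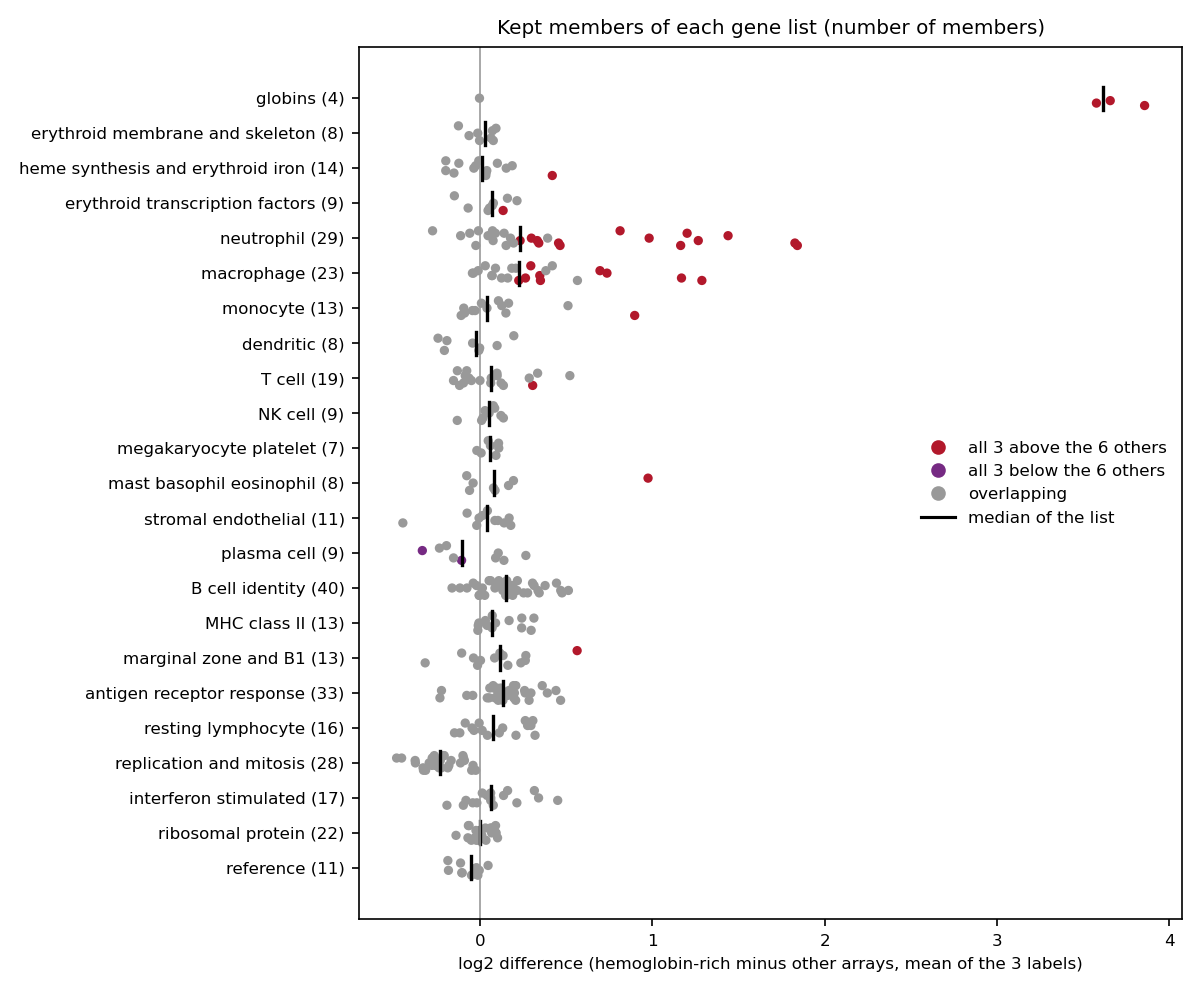
Mean log2 difference (hemoglobin-rich minus other arrays) of every member that passed the noise filter in each of 23 gene lists, 1 point per gene, with red for genes above on all 3 hemoglobin-rich arrays, purple for genes below on all 3, grey for the rest and a black bar for the median. The globin median stands at 3.62, those of the neutrophil and macrophage lists at 0.23 and 0.22, and that of replication and mitosis genes at -0.23.

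B cell genes differed by less than their spread over the labels in most cases. Of 41 genes of B cell identity with a probe, 40 passed the filter, 0 lay above and 0 below on all 3 hemoglobin-rich arrays, and for 38 the mean difference was smaller than its SD over the 3 labels. With 0.84% of all features above and 0.505% below, 0 of 40 is near the background and is not a result about B cell genes. For 23 of the 40, all 3 hemoglobin-rich values lay inside the range of the 6 others. Neither this share nor that of differences smaller than their SD was computed for all features. Both are therefore given as a description. Of the 40, 33 had a positive mean difference, beside 49.4% of all features. That number was 20 without 1 h replicate 2 and 30 without the arrays labelled replicate 2. The summed intensity of the 40 genes was 58459 to 78719 on the hemoglobin-rich arrays and 47704 to 79222 on the others.

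The signal chain of the antigen receptor gives an example. Cd79b read 9360, 6131 and 4943 on the hemoglobin-rich arrays of the untreated, 1 h and 2 h labels, and 8660, 3791, 7250, 2450, 8160 and 3995 on the others, in the order of label and replicate, a difference of 0.34 ± 0.48 (SD, n = 3 labels). The lowest value was that of 1 h replicate 2, and without the arrays labelled replicate 2 the difference was 0.06 ± 0.28. Cd22, an inhibitory coreceptor, differed by 0.34 ± 0.79, with -0.51 at 2 h, and by 0.14 ± 0.17, with 0.31 at 2 h, without the arrays labelled replicate 2. Ms4a1, the gene of CD20, differed by 0.15 ± 0.45, and read 354, 278 and 232 against 109 to 391. Its difference was -0.05 ± 0.04 without the arrays labelled replicate 2.

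The spread over the labels was narrow for Fcmr, the Fc receptor for IgM, and wider for Ebf1 and Pou2af1. Fcmr differed by -0.04 ± 0.09, and read 12910, 12677 and 10217 against 9796 to 13650. Ebf1, a factor that fixes B cell fate, was inside the range of the others and differed by 0.11 ± 0.29. Pou2af1, a coactivator of antibody genes, differed by 0.15 ± 0.46, with 1 h replicate 3 at 7619 just above the highest other value of 7366. Without the arrays labelled replicate 2, these differences were 0.02 and 0.03. Pax5 was near noise, with 6.7, 14.4 and 1.4 against -1.2 to 15.9, so that its difference of -0.02 ± 0.19 says little about the gene.

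The array 1 h replicate 2 was the lowest for 26 of the 40 B cell genes. The SD over labels of the list's median was 0.36 with all arrays, 0.26 without that array and 0.12 without 2 h replicate 1, where 2 labels remain. The list's median difference was 0.15 with all arrays, with 0.30 in the untreated label, 0.47 at 1 h and -0.22 at 2 h. It was 0.00 without 1 h replicate 2, -0.03 without 1 h replicate 3 and 0.35 without 2 h replicate 1. Without the arrays labelled replicate 2, the median was 0.04 ± 0.04 (SD, n = 3 labels), and the 40 genes lay between -0.23 and 0.24. In that setting the globin median was 3.41 and the neutrophil median 0.25.

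**Figure D5:**
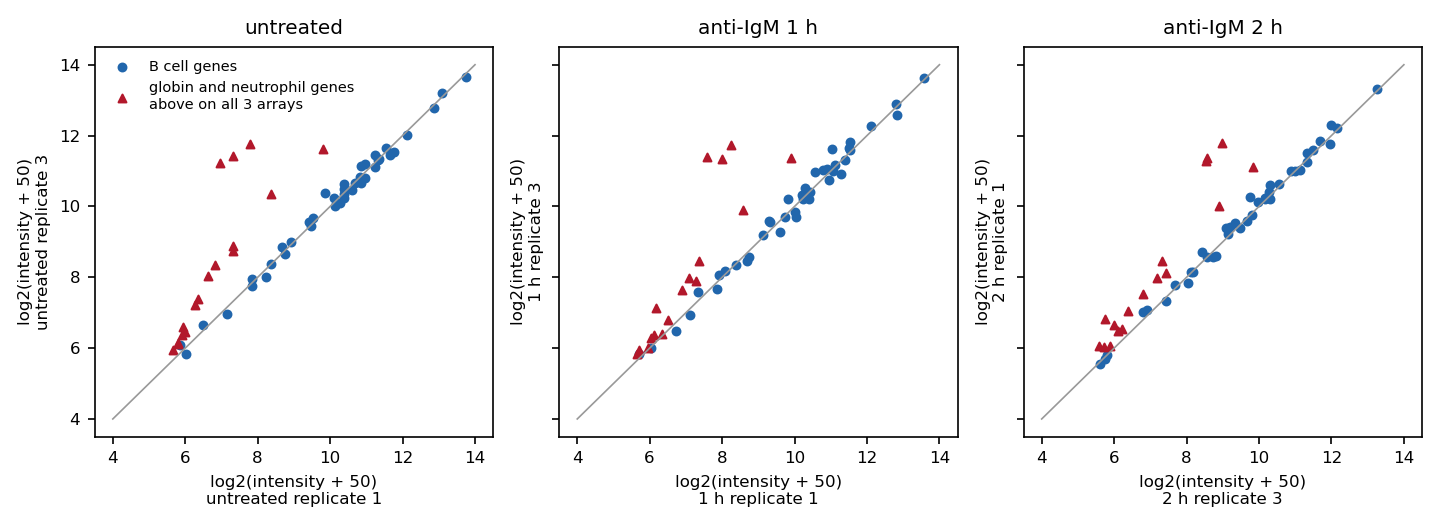
Level on log2(intensity + 50) of the hemoglobin-rich array (vertical axis) against the array of the same label not labelled replicate 2 (horizontal axis), 1 panel per label, with blue circles for B cell genes, red triangles for globin and neutrophil genes above on all 3 arrays, and a grey line of equality. The 40 B cell genes lie along the line in all 3 panels, within -0.23 and 0.24 on average over the labels, while the red triangles lie above it.

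Antigen presentation genes gave small differences at high intensities. Cd74, the invariant chain of MHC class II, read 21931, 23438 and 22684 on the hemoglobin-rich arrays and 20691 to 24650 on the others, a difference of -0.01 ± 0.04 (SD, n = 3 labels). H2-Aa differed by -0.01 ± 0.06, H2-Ab1 by 0.07 ± 0.16 and H2-Eb1 by 0.04 ± 0.22, all class II chains. Of 13 class II genes, 0 lay above or below, which is near the 0.84% and 0.505% of all features.

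Plac8, a small cysteine-rich protein gene of marginal zone B cells and of myeloid cells, was the exception among the B cell subset genes. It read 6246, 6445 and 6273 against 1671 to 6203, so that the sides were separated by a narrow gap, and the difference of 0.56 ± 0.47 was 0.25 ± 0.06 without the arrays labelled replicate 2. It was 1 of 13 marginal zone and B1 genes above, beside 0.84% of all features.

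Genes that respond to the antigen receptor varied more among the hemoglobin-rich arrays than between the sides. Egr1, an immediate-early transcription factor gene, read 876, 12904 and 6918 on the untreated, 1 h and 2 h hemoglobin-rich arrays, and 1054 to 10635 on the others, a difference of 0.13 ± 1.62 (SD, n = 3 labels) and of -0.02 ± 0.27 without the arrays labelled replicate 2. Myc read 70.0, 816 and 876 against 56.4 to 840.5, and Ccl4, a chemokine gene, read 526.3, 14441 and 14820 against 289 to 19817. The hemoglobin-rich array was low in the untreated label and high in both treated labels for each of these genes. Of 33 response genes, 0 lay above or below, which is near the 0.84% and 0.505% of all features. For 32 of them the difference was smaller than its SD, a share that was not computed for all features. A positive difference was seen for 29, beside 49.4% of all features, and for 20 without the arrays labelled replicate 2. Klf2, a factor of resting lymphocytes, was instead highest on the untreated hemoglobin-rich array, with 862, 249.2 and 115. It differed by 0.21 ± 1.34, or by -0.20 ± 0.21 without the arrays labelled replicate 2.

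Ribosomal protein and reference genes, a check on scaling, differed little between the sides. The median difference was -0.00 over 22 ribosomal protein genes and -0.05 over 11 reference genes, among them B2m with 0.05 ± 0.11 and Actb with -0.05 ± 0.25 (SD, n = 3 labels). In both lists 0 genes lay above or below, which is near the 0.84% and 0.505% of all features.

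Lower genes on the hemoglobin-rich arrays were few and their differences small. The 12 named genes below all 6 others with the largest differences reached from -0.29 to -0.46. Psat1, an enzyme of serine synthesis, read 506, 451 and 502 against 566 to 1194, and Herpud1, a gene of the endoplasmic reticulum stress response, read 1391, 1375 and 1292 against 1433 to 3753. Both were highest on 1 h replicate 2, and without the arrays labelled replicate 2 their differences were -0.34 and -0.30. Cenpi, a centromere protein gene, read 35.2, 33.6 and 28.7 against 43.3 to 80.9, a difference of -0.46 ± 0.06 (SD, n = 3 labels) and of -0.52 without the arrays labelled replicate 2. Orc6, a subunit of the complex that marks replication origins, differed by -0.33 ± 0.13. Creld2 and Jchain, of the plasma cell list, lay below at -0.34 and -0.11, the latter near noise.

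Replication and mitosis genes had lower mean levels on the hemoglobin-rich arrays. All 28 members that passed the filter had a negative mean difference, from -0.48 to -0.03, whereas 49.4% of all features had a positive one. Of the 28, 14 were negative in each of the 3 labels, a share that was not computed for all features. None of the 28 lay below all 6 others, which is near the 0.505% of all features and says little about the list. Cenpi and Orc6, given above as lower genes, are not members of this list. The list's median was -0.23 with all arrays and -0.30 without the arrays labelled replicate 2, beside -0.00 over all features. It was -0.12 with 8 positive members without 2 h replicate 1, -0.13 with 7 without untreated replicate 1, and -0.14 with 7 without 1 h replicate 1. Mcm5, a subunit of the replicative helicase, read 1300.2, 1142 and 944 against 922 to 1948, and Mcm4, another, read 1210.0, 1415 and 1107 against 1127 to 2091. The summed intensity of the 28 genes was 11977 to 17796 on the hemoglobin-rich arrays and 13473 to 23318 on the others. The part that the globin and neutrophil RNA on the same arrays had in these lower values was not tested. The median was -0.09 in the untreated label, -0.16 at 1 h and -0.49 at 2 h.

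The labels of the study, which the division did not use, were compared over all features. Across untreated, 1 h and 2 h arrays, limma's moderated F-test with Benjamini-Hochberg adjustment over 14640 features called 0 features (0%) at an adjusted p under 0.05, and 639 had an unadjusted p under 0.05. The 3 arrays labelled replicate 2 correlated best with arrays of other labels, as given above, so 0 calls does not show that the labels had equal levels. For genes that follow the division the test says nothing: each label holds 1 hemoglobin-rich and 2 other arrays, which fixes a large spread within every label (a residual SD of 2.26 for Hba-a1 and 1.13 for S100a8, on the log2 scale). With the hemoglobin-rich arrays as a block, limma called 0 features and 508 had an unadjusted p under 0.05. Over the 6 other arrays alone it called 0 features, with 175 at an unadjusted p under 0.05, and 4 of these were among 87 globin, erythroid, neutrophil and macrophage genes. No label says that arrays of 1 group came from separate mice or cultures, and the p-values then measure how far these samples spread, which may be technical.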

How the data were processed

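Biotin-labelled RNA of mouse splenic B cells was hybridized to 9 Illumina bead arrays, 3 for each of the labels untreated, anti-IgM 1 h and anti-IgM 2 h. The deposited table gives a linear intensity for each of 45281 probes. Values below 0 (31.8%) show a background subtraction, and software and normalization are not stated in the sources used. A further deposited table has 9 value columns whose names match no single sample, so it was not used.

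Groups followed the sample labels, and the arrays were divided within them by Hba-a1 above 1000. A probe counted as above noise beyond the upper 0.05 tail of the values below 0 mirrored around 0 (a median threshold of 6.44) and was kept when it did so on 3 or more arrays (20983 probes). The platform annotation gives 1 symbol to 34885 probes, several to 18 and none to 10378. The kept probe with the highest mean stood for a gene, which gave 11104 named and 3536 unnamed features. Levels are log2(intensity + 50), an offset that understates the change of dim genes. Differences are the mean and SD over the 3 labels of the hemoglobin-rich array minus the mean of the 2 others, computed with pandas 2.3.3. Labels were compared with limma 3.58.1 in R 4.3.3 (lmFit, eBayes, moderated F-test), which shares 1 estimate of the spread over all 9 arrays. The number of arrays limits the precision.

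The 23 gene lists, the division and the genes always named were chosen with earlier results of these data known. Named were up to 20 genes higher and 12 lower without overlap, up to 6 non-overlapping members of each list or else its 3 brightest, the 10 genes most correlated with Hba-a1 over the 9 arrays, and a fixed set. Of 94 named genes, 70 had a promoter window in the RefSeq table. The computation was tested on simulated data.

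Replicate numbers are shared by the labels. Deviations from the label means correlated between arrays of the same number from -0.79 to 0.57, over 0.1 in 3 of 9 pairs, so the numbers were not taken to pair the arrays. Alternatives covered the offset, the noise filter, quantile normalization, the probe of a gene, a replicate block, the variance model and the arrays used.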

Additional observations from a re-analysis of the deposited data

Results flagged for a closer look

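The macrophage level, the average of the kept macrophage genes on the log2 scale, each centred on its own mean, was -0.2 on untreated replicate 2, while the remaining 5 arrays of the low-globin side lay between -0.11 and -0.07. This array stood apart from the rest of its side. It was 1 of 23 lists with such an array among the 6, and chance gives about 1 in 20. Without untreated replicate 2 the median difference of the macrophage list was 0.23, beside 0.22 with all arrays.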

How the results depend on the processing

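Of 132 alternative values of the counts, list medians and label tests, 121 were classed as unchanged and 11 as moved. Unchanged meant a similar number for a count, and a move smaller than the SD over the labels for a median. The label tests called 0 features in every run. A turn of sign was counted only for differences of 1 or more. Among these medians that left globins alone, which did not turn. The smaller B cell identity median of 0.15 did turn, to -0.03 without 1 h replicate 3. The offset moved the number of features higher on all 3 hemoglobin-rich arrays from 13 to 24 with an offset of 16, where Alas2, Camp, Ly6c1, Mpo, Prg2, Slc40a1, Trbv13-2 and Chil1 were among those added, and to 7 with an offset of 100, where Chil3, Chil4, Lcn2, Lyz2 and Ngp were lost. With an offset of 16 the neutrophil median was 0.53 and the macrophage median 0.45, and with 100 they were 0.14 and 0.13. With the mean of the kept probes of a gene, the globin median was 3.17, beside 3.62 with the brightest probe. In that setting 3 of the 4 globin genes still lay above. With no filter on dim probes the neutrophil median was 0.14, the macrophage median 0.10 and the globin median 0.10, since the globin list then held 7 genes, 4 of them near noise. With probes above noise on all 9 arrays, an alternative chosen after seeing the data, the neutrophil median was 0.72 over 14 genes and the macrophage median 0.35 over 11. Leaving out each array in turn gave 10 to 19 higher and 0 to 1 lower features, the 1 being Ppa1 without 2 h replicate 1. The medians then ranged from 3.37 to 3.93 for globins, 0.22 to 0.32 for neutrophil, 0.19 to 0.28 for macrophage and -0.03 to 0.35 for B cell identity genes. Without the arrays labelled replicate 2 there were 10 higher features, all shared with the 13, and Chil3, Chil4 and Lcn2 were lost. Features above all others then numbered 351 (2.40%) and those below 385 (2.63%), against 123 and 74 with all arrays, since fewer arrays had to be passed. Of 1791 alternative values of single genes and further lists, 102 moved past their spread, 49 of them with the offset. A turn of sign was again counted only for differences of 1 or more with all arrays, and 0 of those turned. Smaller ones did turn in places. The T cell median, for example, went from 0.06 ± 0.06 to -0.04 without 1 h replicate 2. The largest gap between arrays gave the same 3 arrays for Hba-a1, Hbb-bs, Hbb-bt, S100a8, Ltf, Slc40a1 and Lyz1. Hba-a1 defined the division, and the other genes of this set already lay above on those arrays. Their gaps are therefore a description and no separate check of the division.

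The limma F-test across labels called 0 features in every alternative run, with 175 to 1517 at an unadjusted p under 0.05 over the same 14640 features. With a replicate block it called 0 features, with 492 at an unadjusted p under 0.05. The replicate numbers did not pair the arrays, and the block changed no call. Dim genes are limited by the noise level, and a gene not kept is not shown to be absent.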
